A study of Homo sapiens with 2 samples.

Results

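The regions described here are the accessible regions at 8 genes of the BCL2 family, BCL2, MCL1, BCL2A1, BAX, BCL2L11, PMAIP1, BBC3 and BMF, in the mantle cell lymphoma line Z-138. They were chosen by position: a peak belonged to a gene when it overlapped a fixed hg19 span around that gene. Of 41540 regions in the SMARCA4 knockdown library, 33 lay in the 8 spans, and of 55124 regions in the control shRNA library, 32 did. These totals cover chromosomes 1 to 22 and X. Z-138 is an established human line of a mature B-cell malignancy. The knockdown cells carried an shRNA against SMARCA4, the motor subunit BRG1 of SWI/SNF complexes, which slide and evict nucleosomes. The control cells carried a control shRNA. Doxycycline was present in the culture of both groups, in IMDM with fetal calf serum. Each group is 1 ATAC-seq library, so the groups cannot be tested against each other. The spread between cultures was not measured. The extent of the knockdown and the identity of the cells cannot be read from peak lists and were not checked. The title of the series places the knockdown beside resistance to ibrutinib plus venetoclax, and the labels of these libraries name neither drug.

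Proteins of the BCL2 family decide whether the outer mitochondrial membrane is opened in apoptosis. Anti-apoptotic members such as BCL2, MCL1 and BCL2A1 hold back the pore-forming effectors BAX and BAK, and the BH3-only proteins, among them BIM (gene BCL2L11), NOXA (PMAIP1), PUMA (BBC3) and BMF, bind and block the anti-apoptotic members or activate the effectors. Many B-cell lymphomas are known to depend on BCL2 or MCL1 for survival, and venetoclax is a small molecule that fills the BH3-binding groove of BCL2.

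The 8 spans were BCL2 on chromosome 18 from 60.76 to 61.02 Mb, MCL1 on chromosome 1 from 150.52 to 150.58 Mb and BCL2A1 on chromosome 15 from 80.23 to 80.29 Mb. BAX was taken on chromosome 19 from 49.44 to 49.48 Mb, and BCL2L11 on chromosome 2 from 111.85 to 111.95 Mb. PMAIP1 was taken on chromosome 18 from 57.54 to 57.60 Mb, BBC3 on chromosome 19 from 47.71 to 47.76 Mb, and BMF on chromosome 15 from 40.36 to 40.42 Mb. An hg19 gene annotation was not used here. Whether a region lies in a promoter, an exon or an intron is therefore not given, and a span can also hold regions of a neighbouring gene. The nearest coding genes in RefSeq (GRCh38.p14) are PHLPP1 and KDSR for BCL2, ADAMTSL4 and ENSA for MCL1, ST20-MTHFS and ZFAND6 for BCL2A1, and DHDH and FTL for BAX. They are CCBE1 and MC4R for PMAIP1, SAE1 and CCDC9 for BBC3, SRP14 and BUB1B for BMF, and ACOXL on the lower side of BCL2L11.

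Promoter windows were taken from RefSeq (GRCh38.p14) by gene symbol, to describe the promoter sequences of these genes. Of the 8 symbols, 7 matched, all but MCL1, and BMF had 2 windows. Each window below is the 250 bases before the annotated start, 5′ to 3′. The coordinates belong to GRCh38.p14 and cannot be set against the hg19 regions. In the first 3 sequences capitals mark CG dinucleotides. The first belongs to BCL2L11, whose span held no region in either library (chr2:111120664-111120913, plus strand), the second to BCL2A1, whose span held no region in the control library (chr15:79971197-79971446, minus strand), and the third to BCL2, whose span held the most regions (chr18:63319770-63320019, minus strand).
BCL2L11: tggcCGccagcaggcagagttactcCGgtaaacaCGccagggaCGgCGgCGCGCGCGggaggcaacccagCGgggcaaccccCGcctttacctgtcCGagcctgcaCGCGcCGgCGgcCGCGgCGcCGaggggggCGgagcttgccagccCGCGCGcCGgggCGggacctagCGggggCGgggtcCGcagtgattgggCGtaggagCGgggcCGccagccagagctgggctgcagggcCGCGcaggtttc
BCL2A1: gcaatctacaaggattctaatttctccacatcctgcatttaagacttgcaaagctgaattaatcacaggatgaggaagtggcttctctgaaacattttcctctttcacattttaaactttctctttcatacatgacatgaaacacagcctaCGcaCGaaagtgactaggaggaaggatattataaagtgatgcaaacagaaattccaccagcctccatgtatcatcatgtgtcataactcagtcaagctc
BCL2: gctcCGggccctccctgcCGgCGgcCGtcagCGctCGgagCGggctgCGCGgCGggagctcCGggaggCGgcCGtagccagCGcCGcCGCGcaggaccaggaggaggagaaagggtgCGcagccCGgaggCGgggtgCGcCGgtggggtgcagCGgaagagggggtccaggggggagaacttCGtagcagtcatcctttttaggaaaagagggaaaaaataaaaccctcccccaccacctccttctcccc
The BCL2L11 window had 34 CG dinucleotides and 76.8% G or C, and the BCL2 window had 24 and 70.0%. The BCL2A1 window had 2 and 38.8%. The ratio of observed to expected CG (CG count times window length over the product of C and G counts) was 0.93 in BCL2L11, 0.79 in BCL2 and 0.22 in BCL2A1. Over all 35114 promoter windows the median ratio was 0.56, and 47.5% were above 0.6. The spans of BCL2L11 and BCL2A1, both nearly without accessible regions, thus lie at genes whose promoters are unlike in CG content. The other windows had ratios of 1.09 (PMAIP1), 1.04 (BAX), 0.28 (BBC3), and 0.98 and 0 (BMF).

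All windows were also searched on both strands for 2 short motifs, CACGTG and TGACGT. Both hold the letters ACGT, and no window of these genes had a match of each. In the BAX window (chr19:48954625-48954874, plus strand) capitals mark CACGTG, the palindromic E-box. In the PMAIP1 window (chr18:59899746-59899995, plus strand) they mark ACGTCA, the reverse complement of TGACGT, a part of the element bound by CREB and ATF factors.
BAX: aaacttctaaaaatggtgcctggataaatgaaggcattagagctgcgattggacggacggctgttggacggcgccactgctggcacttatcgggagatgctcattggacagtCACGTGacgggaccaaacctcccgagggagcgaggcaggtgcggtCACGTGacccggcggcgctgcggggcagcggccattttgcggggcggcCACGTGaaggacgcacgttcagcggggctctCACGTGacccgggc
PMAIP1: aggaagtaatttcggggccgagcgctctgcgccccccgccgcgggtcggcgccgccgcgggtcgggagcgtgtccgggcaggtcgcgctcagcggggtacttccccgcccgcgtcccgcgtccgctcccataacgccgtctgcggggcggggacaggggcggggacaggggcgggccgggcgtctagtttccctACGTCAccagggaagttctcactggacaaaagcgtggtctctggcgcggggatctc
The BAX window held 4 copies of CACGTG. Of all promoter windows, 6.35% held at least 1 copy, and 5 windows, or 0.0142%, held 4 or more. BBC3 had 1 copy, and the windows of BCL2, BCL2A1, BCL2L11, PMAIP1 and BMF had 0. PMAIP1 had 1 copy of TGACGT or its complement, found in 7.10% of all windows, and the other 6 genes with a window had 0. These are matches of letters, and binding was not measured.

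Depth was recovered from the peak caller's values, since the lists hold no read counts. The fold enrichment and p-value of a peak fix the number of reads stacked at its summit, called summit reads here, and the expected background. The knockdown library had 1.42 times the read number of the control, and 1.34 times as many summit reads are given by this depth and the extension lengths of 89 bp and 94 bp. A depth-scaled ratio is the knockdown summit over the control summit multiplied by 1.34. The lowest summit called had 4 reads in the knockdown and 3 in the control library. A region outside a list was below the caller's limit, and was not shown to be closed. All intervals are 95% intervals, and none covers the spread between cultures. Those of read ratios cover counting error only, and reads of amplified libraries are not independent molecules. Those of region numbers and shares count regions as independent, and that of the median log2 ratio rests on the spread between regions.

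The BCL2 family spans held about equal numbers of regions in both libraries. The knockdown list had 33 and the control list 32, or 103.1% of it (61.5 to 173%), and over the whole genome the knockdown number was 75.4% of the control number. The interval of the spans includes the genome value. Regions covered 6893 bp of the spans in the knockdown and 5671 bp in the control library, which is 122% of the control length, against 82.0% genome-wide. Density was 4.78 regions per 100 kb in the knockdown and 4.64 in the control library. The genome averages were 1.41 per 100 kb in the knockdown and 1.87 in the control library. By gene, the knockdown and control counts were 13 and 12 at BCL2, 4 and 4 at MCL1, and 1 and 0 at BCL2A1. They were 3 and 3 at BAX, 0 and 0 at BCL2L11, 4 and 5 at PMAIP1, 3 and 4 at BBC3, and 5 and 4 at BMF.

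**Figure D1:**
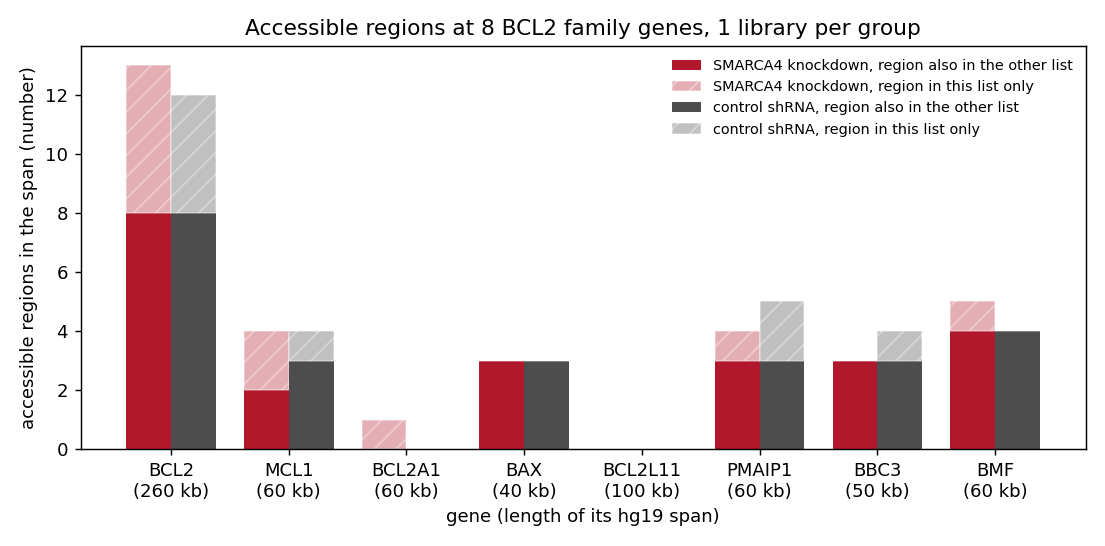
Number of accessible regions (vertical axis) in the span of each gene (horizontal axis), SMARCA4 knockdown in red and control shRNA in grey, 1 library each. Filled parts are regions overlapped by a region of the other list and hatched parts are regions of 1 list; BCL2 had 13 knockdown and 12 control regions, and BCL2L11 had 0 in both.

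The shares of regions without a partner differed from the genome in opposite directions in the 2 lists, both within counting error when the lists were taken whole. A partner is a region of the other list that overlaps by at least 1 bp. Of the 33 knockdown regions, 10 had no control partner, or 30.3%, where 20.6% of all knockdown regions had none. Of the 32 control regions, 8 had no knockdown partner, or 25%, where 39.5% of all control regions had none. The shares with a partner were 69.7% (51.3 to 84.4%) in the knockdown list and 75% (56.6 to 88.5%) in the control list. Both intervals include the genome values, 79.4% of knockdown and 60.5% of control regions. For the knockdown list this turned with stricter lists. With q-values of at most 1e-05, 52% (31.3 to 72.2%) of the knockdown regions in the spans had a partner, against 78.2% genome-wide, and with lists of equal length it was 45.5% (28.1 to 63.6%) against 71.6%. The share that regions of like fold had genome-wide, in 9 bands of fold, averaged 75.1% for the knockdown and 54.9% for the control regions of the spans. The knockdown value lies inside its interval, and the control value just below its lower bound of 56.6%. BAX and BMF were the genes with control regions at which each control region had a knockdown partner, 3 of 3 and 4 of 4.

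Most regions seen in 1 list alone had a fold below the median of their list. This held for 10 of the 10 knockdown-only regions (list median 7.04) and 6 of the 8 control-only regions (list median 6.45). It is not particular to the spans, since weak regions lacked a partner more often genome-wide. In the fold band that holds 4.54, 48.2% of all knockdown and 29.5% of all control regions had a partner. Over the whole lists the shares were 79.4% for the knockdown and 60.5% for the control. The fold, which is the authors' own value for each peak, ran from 4.05 to 6.89 in the 10 knockdown-only regions (median 4.92) and from 4.03 to 7.21 in the 8 control-only regions (median 5.52). Median widths were 128 bp in the knockdown-only and 94 bp in the control-only regions, with the widest at 425 bp and 129 bp, where the lists as a whole had medians of 163 bp in the knockdown and 161 bp in the control library. Summits had 5 to 14 reads in the knockdown-only and 4 to 12 reads in the control-only regions. Scaled to the depth of the other library, 9 of the 10 knockdown-only and 8 of the 8 control-only summits reached the lowest summit that the other list held at a like background (within 10%). The lowest summit is a loose limit, and the share of all single-list regions that reach it was not computed. These counts thus do not show that the regions should have entered the other list. A region of the other list lay within 1 kb of 6 knockdown-only and 3 control-only regions. For this count, too, the share over all single-list regions was not computed.

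Overlapping regions were joined to 23 shared regions, and the highest summit of each library was compared. Over the 32189 shared regions of the genome the median depth-scaled log2 ratio, knockdown over control, was -0.26 (interquartile range -0.62 to 0.06). Over the 23 in the spans it was 0.06, with an interval from -0.42 to 0.16 that includes the genome value. The knockdown summit was lower than the scaled control summit in 9 of 23, or 39.1% (19.7 to 61.5%), where 72.3% of all shared regions had a ratio below 1. This interval leaves out the genome value, but regions of 1 gene share a locus, and the outcome turned with the setting. The genome value stayed outside under the other overlap rules, the other span limits, without the BCL2 span and with q-values of at most 0.001. It fell inside under the other scalings, the strictest q-value limit and lists of equal length. By local background the share was 42.9% (21.8 to 65.98%) against 65.2%, and without scaling 26.1% (10.2 to 48.4%) against 33.0%. With q-values of at most 1e-05 it was 61.5% (31.6 to 86.1%) against 75.7%, and with lists of equal length 60% (32.3 to 83.7%) against 77.0%. A ratio of 0.5 or less was found in 2 of 23, or 8.70%, where 11.3% of all shared regions had one. A ratio of 2 or more was found in 0 of 23, where 0.587% of all had one. Counting intervals lay below 1 in 2 of 23, against 6.23% of all shared regions, and above 1 in 0 of 23, against 0.028%. For the ratio limits and the intervals, the counts in the spans are thus near their background, and 23 regions cannot tell small departures from it.

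**Figure D2:**
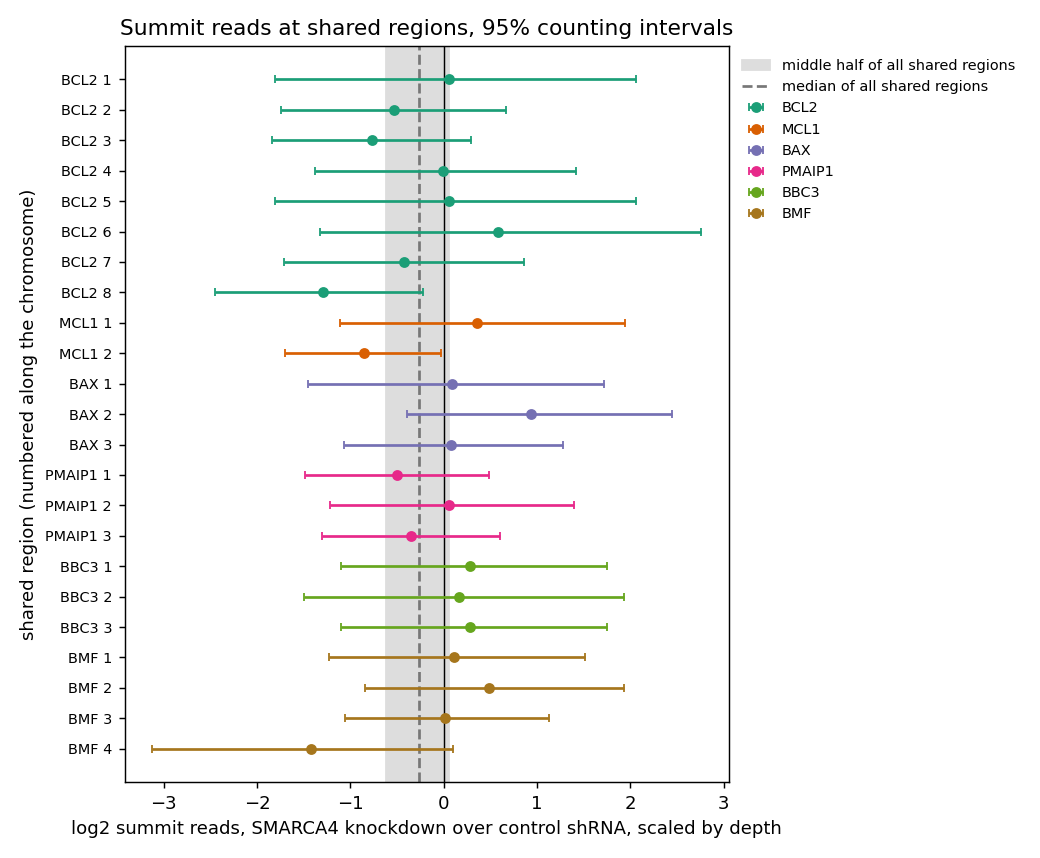
Depth-scaled log2 ratio of summit reads, SMARCA4 knockdown over control shRNA (horizontal axis), for the 23 shared regions (vertical axis), with 95% counting intervals; 0 means equal depth-scaled reads. The grey band is the interquartile range of all 32189 shared regions and the dashed line their median of -0.26; the intervals of BCL2 region 8 and MCL1 region 2 lie below 0.

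At BCL2, the target of venetoclax, the regions of the knockdown list formed 2 separate groups, and the strongest control region was weaker in the knockdown library. That region, at the upper end of the span, had 12 summit reads in the knockdown library (chromosome 18, 60987353 to 60987669, 317 bp) against 22 in the control library (60987354 to 60987774, 421 bp). At equal depth 22 control reads correspond to 29.5. The ratio was 0.407 (0.183 to 0.858), log2 -1.30, and 5.40% of all shared regions had a ratio as low. The interval leaves out 1 but includes the genome median ratio of 0.833. The region was named for its highest control fold, a choice that by itself favours a low ratio. The ratio stayed below 1 without scaling, at log2 -0.87, and with scaling to the local background, at log2 -0.95. Its fold was 5.81 in the knockdown list and 10.6 in the control list, the highest fold and the largest width of the control regions in the span. A knockdown-only region of 89 bp and 10 reads lay 142 bp below it, from 60987123 to 60987211.

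The next BCL2 region down, at 60985453 to 60985583, had 12 summit reads in the knockdown library and 12 in the control library, or 16.1 at equal depth. Its ratio of 0.745 (0.306 to 1.81) includes 1. Below it the knockdown list was empty for 110.5 kb. Of the stretches between neighbouring knockdown regions, 18.4% were as long, and such stretches make up 62.6% of the genome length. In the control list the empty BCL2 stretch held 1 region, from 60935425 to 60935518, with 4 reads. A summit of 4 control reads corresponds to 5.37 at the depth of the knockdown library, where the lowest called summit at a like background was 4.

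The remaining BCL2 regions lay between 60767240 and 60874919. The highest knockdown fold of the gene, 8.52, was at 60859874 to 60859995, with 12 reads in the knockdown and 9 in the control library (12.1 at equal depth), a ratio of 0.994 (0.384 to 2.67). The widest knockdown region, 341 bp from 60822744 to 60823084, had 15 reads against 19 in the control library (25.5 at equal depth), a ratio of 0.588 (0.278 to 1.22). The highest ratio of the gene, 1.49 (0.399 to 6.76), came from 8 knockdown and 4 control reads at 60874535 to 60874623. Such counts leave the direction undecided. Of the other shared regions, the one at 60809145 to 60809300 had 13 knockdown and 14 control reads (18.8 at equal depth), a ratio of 0.692 (0.300 to 1.59). Those at 60786973 to 60787061 and 60860260 to 60860348 each had 7 knockdown and 5 control reads, a ratio of 1.04 (0.285 to 4.17). The strongest control-only region, from 60829749 to 60829861, had 12 reads and a fold of 7.15, and the nearest knockdown region was 1230 bp away. The strongest knockdown-only region of the gene, from 60828324 to 60828518, had 11 reads and a fold of 6.01, and lay 618 bp from a control region, itself unpaired, with 10 reads. The other regions of 1 list had 5, 5 and 6 reads in the knockdown list and 7 reads in the control list. Summed over the 8 shared regions, BCL2 had 86 summit reads in the knockdown and 90 in the control library (121 at equal depth), a ratio of 0.712 (0.524 to 0.968). The same sum over all shared regions of the genome gave 0.801 (0.798 to 0.804), which lies within the interval of BCL2. The median log2 ratio of the 8 regions was -0.22 by depth, -0.01 by local background over 7 of them and 0.21 without scaling, so its sign turns with the scaling.

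**Figure D3:**
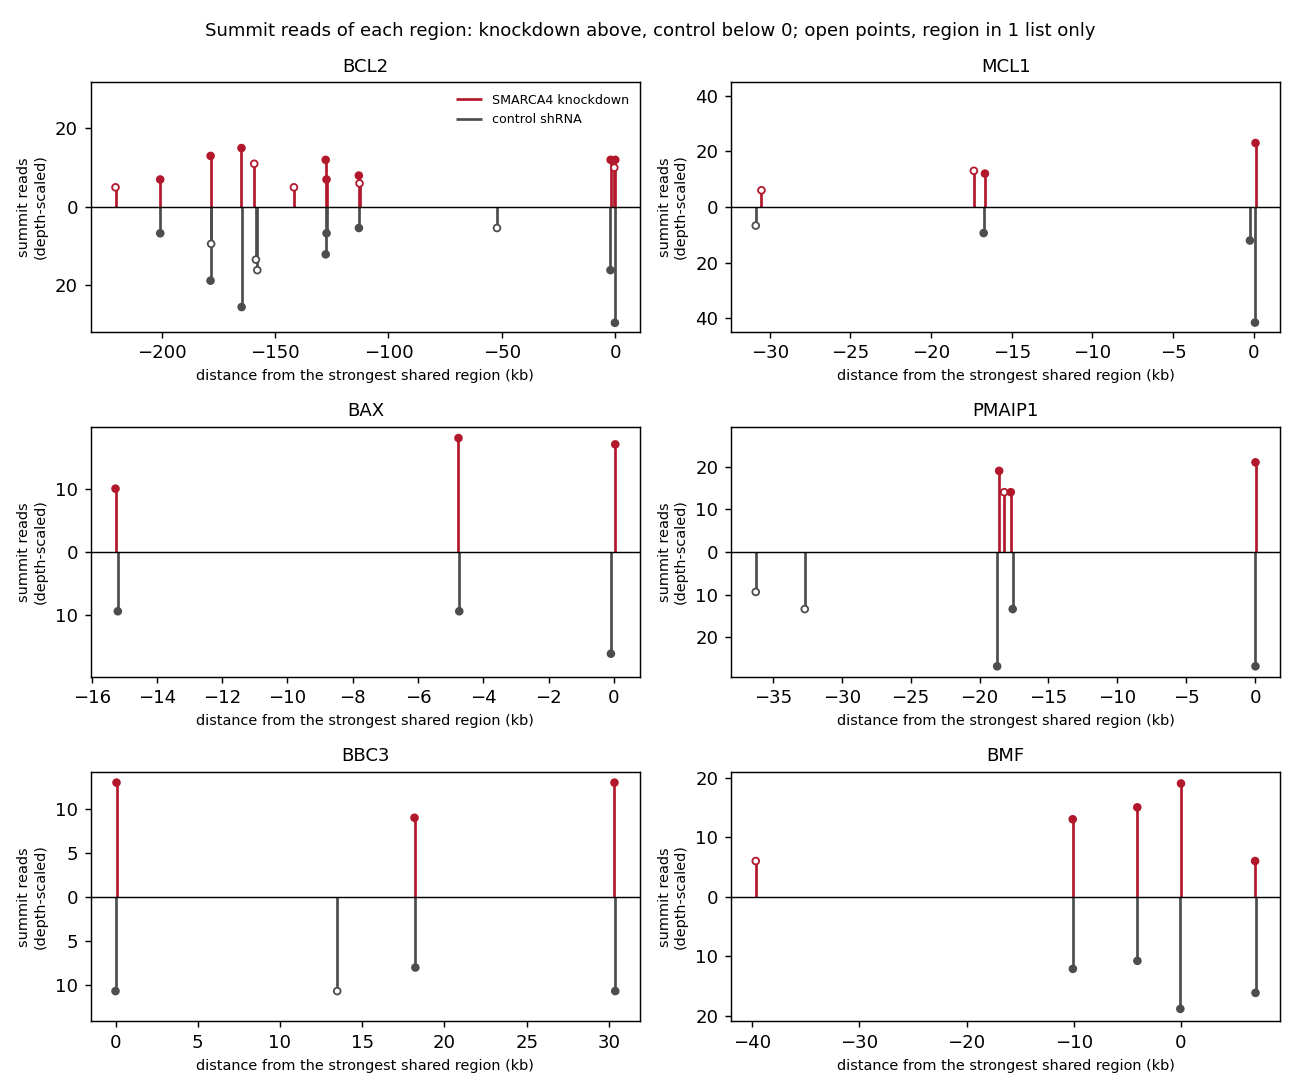
Summit reads of each region (vertical axis; knockdown above 0, control below 0 and multiplied by 1.34) against the distance in kb from the strongest shared region of the gene (horizontal axis), for the 6 genes with shared regions. Open points are regions of 1 list; at BCL2 and MCL1 the strongest shared region has 12 and 23 knockdown reads against 29.5 and 41.6 scaled control reads.

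MCL1, a short-lived anti-apoptotic protein that venetoclax does not target, had the strongest region of all 8 spans. In the knockdown library it was 1 region of 673 bp (chromosome 1, 150551703 to 150552375), the widest region of either list in the 8 spans and within the widest 3.01% of its list. In the control library the same place held 2 regions, of 151 bp (150551807 to 150551957) and 340 bp (150552047 to 150552386). The summit had 23 reads in the knockdown and 31 in the control library, or 41.6 at equal depth. The depth-scaled ratio was 0.553 (0.308 to 0.980), log2 -0.85, and remained below 1 by local background (log2 -0.82) and without scaling (log2 -0.43). A ratio as low was found in 14.9% of all shared regions. The counting interval includes the genome median ratio of 0.833. This region too was named for the highest control fold of its span, which favours a low ratio. The fold of 11.6 placed the knockdown region in the top 14.5% of its list, and the fold of 17.6 placed the control region in the top 1.09% of its own. The region as called was thus wider and its summit lower in the knockdown library. Widths were not scaled for the greater depth of the knockdown library, so they cannot be compared as the scaled summits can.

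A second shared region at MCL1 went the other way within its error. It had 12 summit reads in the knockdown library (150535375 to 150535523) and 7 in the control library (150535300 to 150535444), or 9.39 at equal depth, a ratio of 1.28 (0.464 to 3.83). A knockdown-only region with 13 reads and a fold of 6.89, the highest of the knockdown-only regions in the spans, lay beside it from 150534693 to 150534820. The nearest control region was 479 bp away. Near the lower end of the span, a knockdown-only region of 212 bp and 6 reads and a control-only region of 94 bp and 5 reads lay 152 bp apart.

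BCL2A1, an anti-apoptotic gene known as a target of NF-kappaB in B cells, had 1 weak region in the knockdown library and 0 in the control library. The knockdown region lay on chromosome 15 from 80285866 to 80285960, with 7 reads, 95 bp and a fold of 6.05. Its nearest control region was 24.2 kb away. A summit of 7 knockdown reads corresponds to 5.22 at control depth, above the lowest called summit of 3, so a region of equal strength could have entered the control list. The control list was empty for 93.7 kb around the gene, and 16.0% of the stretches between neighbouring control regions were as long. Such stretches make up 56.6% of the length between control regions, so a place chosen by position alone often lies in one. On the lower side the next region was present in both libraries, with 35 summit reads in the knockdown and 19 in the control library (25.5 at equal depth).

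BAX, which forms pores in the outer mitochondrial membrane, had 3 regions in each library, all shared. None of the 3 summits was below the scaled control summit. The region at the lower end of the cluster had 10 summit reads in the knockdown library (chromosome 19, 49457893 to 49458150) and 7 in the control library (49457903 to 49458115), or 9.39 at equal depth. Its ratio was 1.06 (0.366 to 3.30). The middle region, which had the highest knockdown fold of the span (8.74), was also the widest knockdown region of the span and had the highest ratio of the 23 shared regions. It had 18 reads over 274 bp in the knockdown library (49468413 to 49468686) against 7 reads over 147 bp in the control library. The ratio was 1.92 (0.764 to 5.43), log2 0.94, and 99.2% of all shared regions had a ratio as high or lower. Without scaling the log2 ratio was 1.36, and by local background it was 0.75, but the counting interval includes 1. The upper region, with the highest fold (7.42) and largest width (341 bp) of the control regions, had 17 reads in the knockdown and 12 in the control library, a ratio of 1.06 (0.475 to 2.42), and a log2 ratio of -0.32 by local background. In summed summits BAX had 45 knockdown and 26 control reads (34.9 at equal depth), a ratio of 1.29 (0.779 to 2.18). FTL is the coding neighbour on the upper side, and which of the regions belong to it is not given.

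BCL2L11, which encodes the BH3-only protein BIM, had no region in either list. The stretch without a region reached far beyond the span. In the knockdown list it was 354.5 kb long (chromosome 2, 111612153 to 111966658), and 2.22% of the stretches between neighbouring regions of that list were as long. In the control list it was 336.2 kb long (111630283 to 111966435), and 1.06% were as long. Median stretches were 34.0 kb in the knockdown and 27.1 kb in the control list. With both lists joined, 458 of 62470 stretches were as long, or 0.733%, and these include the gaps at centromeres. Measured by length, stretches as long as the one at BCL2L11 make up 20.6% of the genome between regions in the knockdown list, 13.1% in the control list and 11.1% with both joined. Regions that bounded the empty stretch were weak, with 5 summit reads on either side in the knockdown library, and 5 on the lower and 4 on the upper side in the control library. Within 1000 kb of the centre of the span the knockdown list held 24 regions with 4 to 28 reads and the control list 21 with 3 to 24 reads. Homozygous loss of BCL2L11 is known as a recurrent event in mantle cell lymphoma lines. Whether Z-138 carries such a loss was not established here, and peak lists carry no copy number. Lost DNA and closed chromatin cannot be told apart in the empty stretch.

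**Figure D4:**
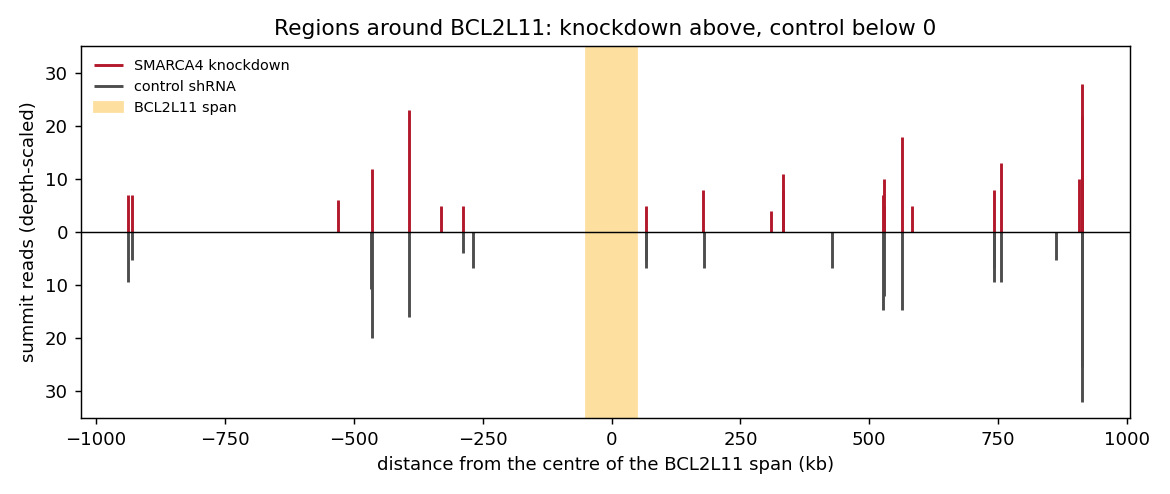
Summit reads of the regions within 1000 kb of the centre of the BCL2L11 span (vertical axis; knockdown above 0, control below 0 and multiplied by 1.34) against distance in kb (horizontal axis). The shaded span lies inside a stretch of 336.2 kb with 0 regions in both libraries, and the lists hold 24 knockdown and 21 control regions on the 2 sides of it.

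PMAIP1, which encodes NOXA, an antagonist of MCL1, had its strongest regions in both libraries, at near-equal read numbers before scaling and at lower ones in the knockdown at equal depth, within counting error. The region at chromosome 18, 57585668 to 57586018, had 21 reads in the knockdown and 20 in the control library (26.8 at equal depth), with a fold of 9.95 in the knockdown and 9.66 in the control list, the highest of the span in each. Its ratio was 0.783 (0.404 to 1.52). The region at 57567025 to 57567311 had 19 knockdown and 20 control reads (26.8 at equal depth), a ratio of 0.708 (0.358 to 1.40) and the lowest of the gene. In the control library this region was the widest of the span, at 322 bp. The third shared region, at 57568025 to 57568229, had 14 knockdown and 10 control reads (13.4 at equal depth), a ratio of 1.04 (0.431 to 2.63). Between the last 2, the knockdown list held a region of 425 bp with 14 reads and no control partner (57567379 to 57567803), the widest knockdown region of the span. The knockdown library thus had 3 neighbouring regions where the control library had 2. The edge of this region was 70 bp from a control region. On the lower side, 2 control-only regions had 7 and 10 reads, the stronger with a fold of 7.21 (57553078 to 57553206) and its nearest knockdown region at 13.8 kb. This was the highest fold of the control-only regions in the 8 spans. Summed, PMAIP1 had 54 knockdown and 50 control reads (67.1 at equal depth), a ratio of 0.805 (0.538 to 1.21), close to the genome value of 0.801. The median log2 ratio of its 3 shared regions was -0.35 by depth, 0.03 by local background and 0.07 without scaling, so its sign also turns with the scaling.

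BBC3, which encodes the p53 target PUMA, had 3 shared regions, each higher in the knockdown library at equal depth and each within its counting error. The region at 47729409 to 47729614 on chromosome 19 had 13 knockdown and 8 control reads. At 47747603 to 47747855 there were 9 knockdown and 6 control reads, and at 47759699 to 47760002 there were 13 knockdown and 8 control reads. At equal depth the control values correspond to 10.7, 8.05 and 10.7 reads. The ratios were 1.21 (0.465 to 3.37), 1.12 (0.355 to 3.82) and 1.21 (0.465 to 3.37). By local background the first had a log2 ratio of -0.03. All 3 were wider in the knockdown library, at 206, 253 and 304 bp against 132, 152 and 110 bp in the control library. These widths were not scaled for the greater depth of the knockdown library. The third region had the highest knockdown fold (7.37) and ends 2 bases past the span. The highest control fold, 5.86, belonged to a control-only region of 94 bp and 8 reads (47742960 to 47743053), and its nearest knockdown region was 4549 bp away. Summed, the BBC3 span had 35 knockdown and 22 control reads (29.5 at equal depth), a ratio of 1.19 (0.676 to 2.12). SAE1 and CCDC9 are the coding neighbours, and which of the regions belong to them is not given.

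At BMF, whose BH3-only protein is known for its link to the cytoskeleton, the regions ran in opposite directions. The region with the lowest ratio of all 23 had 6 summit reads in the knockdown library (chromosome 15, 40408074 to 40408242, 169 bp) against 12 in the control library (40407904 to 40408231, 328 bp), or 16.1 at equal depth. Its ratio was 0.373 (0.115 to 1.07), log2 -1.42, and 4.29% of all shared regions had a ratio as low. The log2 ratio without scaling was -1.0. In the control list it had the highest fold (9.02) and the largest width of the span, and in the knockdown list a fold of 5.30. By local background it has no value, since its knockdown surroundings are at the genome-wide floor. The other 3 shared regions had ratios just above 1 or higher at equal depth. The strongest knockdown region, at 40401135 to 40401323, had 19 reads and a fold of 10.1 against 14 control reads (18.8 at equal depth), a ratio of 1.01 (0.481 to 2.18). The highest ratio of the gene, 1.40 (0.556 to 3.81), came from 15 knockdown and 8 control reads at 40397053 to 40397207. The region at 40391054 to 40391230 had 13 knockdown and 9 control reads, a ratio of 1.08 (0.426 to 2.85), and a log2 ratio of -0.12 by local background. These 3 intervals include 1. The widest knockdown region, 244 bp from 40361502 to 40361745, was found in that list alone, with 6 reads and a fold of 4.94. Summed, BMF had 53 knockdown and 43 control reads (57.7 at equal depth), a ratio of 0.919 (0.603 to 1.41).

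By role, the summed summit ratio was 0.705 (0.545 to 0.910) over the 10 shared regions of the anti-apoptotic genes BCL2 and MCL1, with 121 knockdown and 128 control reads. It was 1.29 over the 3 regions of BAX, and 0.920 (0.715 to 1.19) over the 10 regions of PMAIP1, BBC3 and BMF, with 142 knockdown and 115 control reads. The genome value of 0.801 lies in each of these intervals (BAX, 0.779 to 2.18), and the intervals overlap each other. These sums take all shared regions of a span, which can include regions of a neighbouring gene. A difference between the roles was not tested. Over all 23 regions the sums were 308 knockdown and 269 control reads (361 at equal depth), a ratio of 0.853 (0.722 to 1.01).

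The reads of the surrounding 10 kb, which set the caller's local background, are given by gene, and a difference between the genes was not tested. They were available where both libraries were above the genome-wide background, in 21 of the 23 shared regions. At 7 BCL2 regions the depth-scaled ratio of these reads, knockdown over control, ran from 0.672 to 0.981 with a median of 0.749, below the median of 0.907 over 26780 shared regions of the genome. The BCL2 windows hold, for example, 139 reads in the knockdown and 125 in the control library at its strongest region, a ratio of 0.785 (0.612 to 1.01), and 25.2% of all shared regions had one as low. Some windows overlap each other. In 19 of the 21 regions the counting interval of this ratio includes the genome median, and the exceptions are the upper BAX region and the first BBC3 region. The same share over all shared regions of the genome was not computed. Each window also includes the region itself, so its own reads enter this ratio. BAX had ratios from 1.004 to 1.31, the highest from 149 knockdown and 80 control reads. At BBC3 they ran from 0.834 to 1.23 and at BMF from 0.970 to 1.17. PMAIP1 had 0.768 to 0.939, and MCL1 had 0.967 and 0.973. At MCL1 the counting intervals ran from 0.730 to 1.29 and from 0.732 to 1.30, and include 1.

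**Figure D5:**
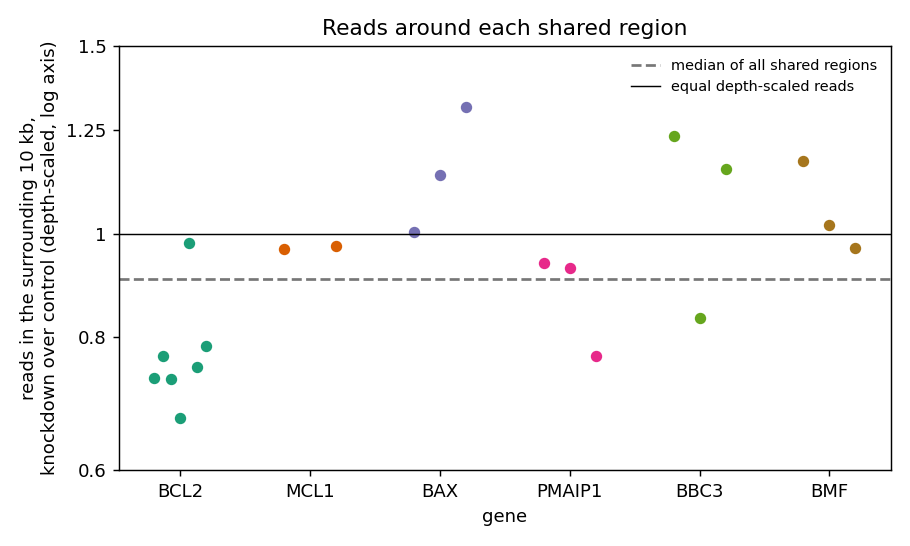
Depth-scaled ratio of the reads in the 10 kb around each shared region, SMARCA4 knockdown over control shRNA (vertical log axis), by gene (horizontal axis), 1 point per shared region. The dashed line is the genome median of 0.907; the 7 BCL2 points have a median of 0.749 and the 3 BAX points lie between 1.004 and 1.31.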

How the data were processed

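Accessible chromatin was measured by ATAC-seq in 1 SMARCA4 knockdown and 1 control shRNA library of Z-138 cells, and 1 peak list per library was analysed. Per the submitters' processing notes, bcl2fastq 2.17.1.14, BWA and MACS2 were used with the build hg19. Not given in the sources used here are their settings, how insertion sites were shifted, and which release of BWA or MACS2 was run. The deposited fold is a ratio, summit reads plus 1 over background plus 1. Both the deposited −log10 p-value and −log10 q-value belong to the summit, and the deposited score was not used. Summit reads and background were solved from the deposited fold and p-value under a Poisson tail, which gave back each −log10 p within 4.2e-05. On simulated peaks, 100% of knockdown and 99.97% of control summits came back exactly. Regions on chromosome Y (71 knockdown, 135 control) were left out. Regions of the 2 lists that overlap by 1 bp or more were joined. Ratios carry Clopper-Pearson intervals of the split of reads, and the summit is the highest point of each library, which the intervals do not cover. The alternatives were other overlap rules, q-value limits, span limits and scalings. Python 3.11.15, scipy 1.17.1 and pandas 2.3.3 were used. In each span the text names the regions of highest fold and largest width in each list, the shared regions of lowest and highest ratio, and the strongest region of 1 list. Genes, spans and rules were chosen with earlier results of these data known. Other BCL2 family genes were not analysed here, for want of an hg19 annotation.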

Additional observations from a re-analysis of the deposited data

How the results depend on the processing

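With 1 library in each group no replicate could be left out. No paired analysis was possible because each group has 1 library. The knockdown number as a percentage of the control number, 103.1%, and the share of control regions with a partner, 75%, stayed within their counting intervals under every alternative run, at 95.5 to 157% and 59.4 to 81.3%. The share of knockdown regions with a partner, 69.7%, was 84.8% with a gap of 500 bp (84.4% genome-wide) and 45.5% with lists of equal length (71.6% genome-wide), where the control list loses its weakest peaks by construction. The median log2 ratio of shared regions, 0.06, turned to -0.35 with q-values of at most 1e-05 (13 shared regions, -0.27 genome-wide). It turned to -0.35 with lists of equal length (15 shared regions, -0.31 genome-wide), and was 0.49 without scaling. The cause was not tested. The genome median was -0.26 by depth, -0.15 by local background and 0.16 without scaling. Shared regions with a ratio of 0.5 or less, 2 in all, numbered 1 with 50% overlap, 1 with reciprocal overlap, 1 at a q-value of 1e-05, 1 without the BCL2 span, 0 by local background, where 1 of the 2, at BMF, has no value, and 1 without scaling. Those with a ratio of 2 or more, 0 in all, numbered 1 with spans widened by 50 kb and 2 without scaling. Pairing each control region with its largest overlap, chosen after seeing the data, gave 2, 0 and a median of 0.06. Summits of 4 to 31 reads limit what can be told: 21 of 23 counting intervals include 1.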
